A study of Mus musculus with 12 samples.

Results

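The matrix metalloproteinases (MMPs), the ADAMTS proteases and the ADAMTS-like proteins were compared between side populations sorted from mouse eye-moving muscle (extraocular, EOM) and from a leg muscle, tibialis anterior (TA). Members were all probe sets whose single gene symbol in the platform's probe-to-gene table was Mmp, Adamts or Adamtsl followed by a number, with a letter allowed after an Mmp number. This gave 65 of the 45101 probe sets, for 38 genes: 29 probe sets of 18 MMP genes, 28 probe sets of 15 ADAMTS genes and 8 probe sets of 5 ADAMTS-like genes. A side population is sorted from dissociated tissue by its low staining with Hoechst, a dye that these cells pump out. Per the labels, 6 separately isolated EOM preparations and 6 separately isolated TA preparations were each hybridized to 1 Affymetrix mouse array after 2 rounds of linear amplification. The labels used here give no strain, genotype, treatment, age or sex for either group. Arrays are named by muscle and by the number in their title (0, 1, 2, 3, 5 and 6 in each group).

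MMPs are zinc-dependent endopeptidases, secreted or held at the cell surface, that together cleave most proteins of the extracellular matrix. They are made as inactive proforms, activated by other MMPs, plasmin or furin-like convertases, and inhibited by the TIMP proteins. ADAMTS proteases are secreted relatives with thrombospondin repeats that cleave proteoglycans such as versican and aggrecan, procollagens and other matrix proteins. ADAMTS-like proteins share the repeats but lack the protease domain, and several bind fibrillin microfibrils. In skeletal muscle such proteases act on the matrix around fibres, vessels and tendon.

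The values were MAS5 signals, 1 number per probe set and array, and fold changes are EOM minus TA of log2(signal + 16), fitted with limma. Most arrays were alike in overall signal, but EOM 1, TA 3 and TA 5 had median signals of 87.2, 69.6 and 63.2, against 31.2 to 43.4 on the other 9. Beta-actin probe sets near the 3' and the 5' end give a ratio that is large where amplified RNA is short, and it ran from 8.92 to 104.2 in EOM and from 5.27 to 165.3 in TA, and these 3 arrays had values of 100.2 or more. The share of all tested genes past the threshold was 10.9% with 12 arrays and 20.5% without EOM 1. In bulk RNA of this kind, fewer cells of a type and less RNA per cell cannot be told apart.

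Of the 38 genes, 29 were tested and 9 fell under the filter on low signal. Of the 29, 6 rose in EOM, 3 fell and 20 did not pass (limma, adjusted p under 0.05 over all tested probe sets). That is 31% of the tested members, against 10.9% of all 13092 tested genes. By direction, 20.7% of the members rose against 4.08% of all genes, and 10.3% fell against 6.81%. The families differed: 3 of 12 tested MMP genes rose and 1 fell, and 2 of 5 ADAMTS-like genes rose and 0 fell. Of the 12 tested ADAMTS genes 1 rose (8.33%) and 2 fell (16.7%). The 6 that rose were Mmp23, Mmp3, Mmp16, Adamts15, Adamtsl1 and Adamtsl4, and the 3 that fell were Mmp13, Adamts9 and Adamts7. The median log2 fold change of the 29 was 0.57, against -0.04 for all tested genes. For 5 of the 29 the 2 groups of arrays were fully apart, as they were for 7.15% of all tested genes. The members that passed the filter are not all members: 3 of them (Mmp13, Adamts7 and Adamts6) had a mean signal under the filter's level of 33.87 in 1 group and passed it through the other.

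**Figure D1:**
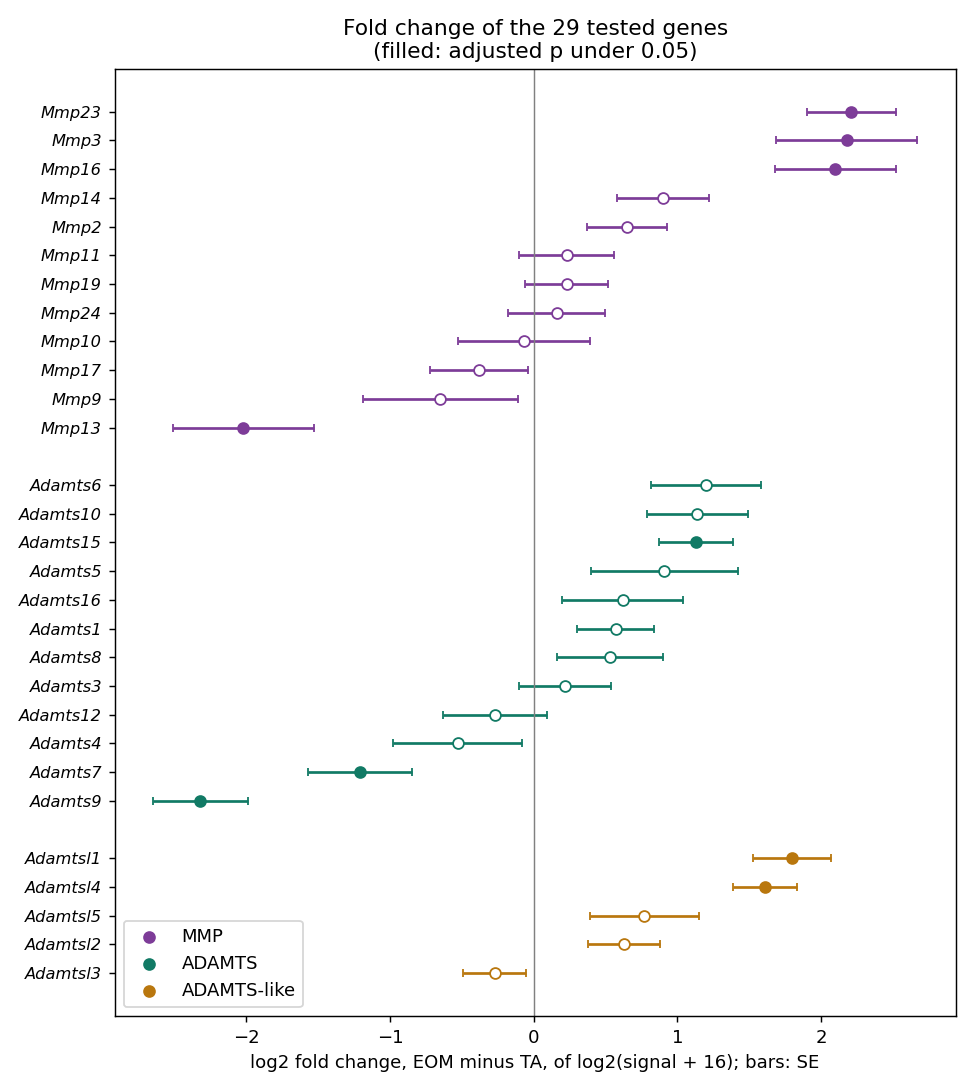
log2 fold change (EOM minus TA, of log2(signal + 16)) of the 29 tested genes, with bars for the SE and filled points for adjusted p under 0.05. Points right of 0 are higher in EOM: 3 MMPs, Adamts15 and 2 ADAMTS-like genes are filled on that side, and Mmp13, Adamts9 and Adamts7 on the other.

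Among the 5 MMP genes of the membrane-bound kind, 2 rose in EOM, against 4.08% of all tested genes. Mmp23, which is anchored by its N-terminal end and lacks the haemopexin domain of most MMPs, had signals from 1384.9 to 4170.2 (median 1741.0) in EOM, against 235.3 to 593.4 (median 419.9) in TA. All EOM arrays lay above all TA arrays. It differed by a log2 fold change of 2.21 ± 0.31 (SE, limma adjusted p = 9.91e-05, probe set 1417281_a_at). Mmp16, a membrane-type protease known as an activator of pro-Mmp2, had signals from 117.1 to 479.1 (median 236.1) in EOM and from 10.5 to 120.8 (median 45.4) in TA. Only EOM 3, at 117.1, and TA 3, at 120.8, crossed. On the log2 scale the difference was 2.10 ± 0.42 (SE, limma adjusted p = 0.00309, probe set 1440161_at). Mmp14, the main collagen-cleaving membrane-type MMP and the partner of Timp2 in the activation of pro-Mmp2, had signals from 1713.5 to 3707.1 (median 2889.0) in EOM and from 836.0 to 2956.0 (median 1210.8) in TA. TA 0 and TA 6 lay within the EOM range, and the difference of 0.90 ± 0.32 did not pass (limma adjusted p = 0.104). It passed without EOM 1 (1.04, adjusted p = 0.0203) and without TA 6 (1.10, adjusted p = 0.0370). The other membrane-type genes among the members, Mmp17 at -0.38 and Mmp24 at 0.16, did not pass. A further tested probe set of Mmp24 was at 1.02 ± 0.43 and did not pass either (limma adjusted p = 0.187). Family genes without a probe set of a single symbol were not analysed.

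Of the stromelysins, Mmp3 rose. Stromelysin 1, its product, cleaves a wide range of matrix proteins and activates other pro-MMPs. Signals of Mmp3 ran from 676.0 to 4414.0 (median 2592.4) in EOM and from 168.7 to 1651.4 (median 495.6) in TA. The lowest EOM value was that of EOM 1, and the other 5 EOM arrays, from 2093.3 upward, lay above every TA array. Its log2 fold change was 2.18 ± 0.49 (SE, limma adjusted p = 0.00819, probe set 1418945_at), and 2.53 without EOM 1 (adjusted p = 0.000291). Mmp10, stromelysin 2, was at -0.07 ± 0.46 with a 95% interval from -1.04 to 0.91. Mmp11, stromelysin 3, known to be activated inside the cell by furin, was at 0.23 ± 0.33.

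Mmp13 moved the other way. It encodes collagenase 3, the best known interstitial collagenase of the mouse and a product of cartilage and bone cells. Its signals were 1.0 to 8.9 (median 2.25) in EOM, against 12 to 185.8 (median 68.35) in TA. All EOM arrays lay below all TA arrays, and the EOM values were among the low signals of the array, where no detection calls were at hand. The log2 fold change was -2.02 ± 0.49 (SE, limma adjusted p = 0.0135, probe set 1417256_at). Its size depended on the added constant, at -3.91 with 1 and -1.0 with 64, both past the threshold. TA 0 and TA 1 were the highest arrays, at 185.8 and 147.7, and without either of them Mmp13 did not pass (highest adjusted p = 0.0521). The other collagenase genes, Mmp8, Mmp1a and Mmp1b, fell under the filter on low signal and were not tested.

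The gelatinases did not pass. Mmp2, gelatinase A, a fibroblast protease that digests denatured collagen and collagen IV, had signals from 15714.2 to 36763.8 (median 20259.0) in EOM and from 9800.3 to 21673.6 (median 12664.2) in TA. The highest value in each group was on EOM 1 and TA 3, and the groups overlapped. It differed by a log2 fold change of 0.65 ± 0.28 (95% interval 0.06 to 1.25, limma adjusted p = 0.199). It passed with quantile normalization (0.70, adjusted p = 0.00850) and with median centring (0.75, adjusted p = 0.0280), and without EOM 1, TA 3 and TA 5 (0.67, adjusted p = 0.0172). A further Mmp2 probe set was at 0.83 ± 0.26 (SE, limma adjusted p = 0.0609, probe set 1416136_at). On it EOM 1 was the lowest EOM array, at 5817.3, and the other EOM arrays lay above every TA array. Mmp9, gelatinase B, known from neutrophils and macrophages, ran from 4.0 to 183.9 (median 17.55) in EOM and from 23.5 to 91.9 (median 58.65) in TA, at -0.65 ± 0.54 (adjusted p = 0.594). The highest EOM value was on EOM 1, and without it the difference was -1.08 (adjusted p = 0.106). With array weights Mmp9 passed, at -1.18 (adjusted p = 0.0388). Its further tested probe set was at -0.58 ± 0.48 and did not pass. Of the remaining MMP genes, Mmp19 was at 0.23 ± 0.29. Mmp7 (matrilysin), Mmp12 (macrophage elastase) and Mmp20 (an enamel protease) fell under the filter.

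**Figure D2:**
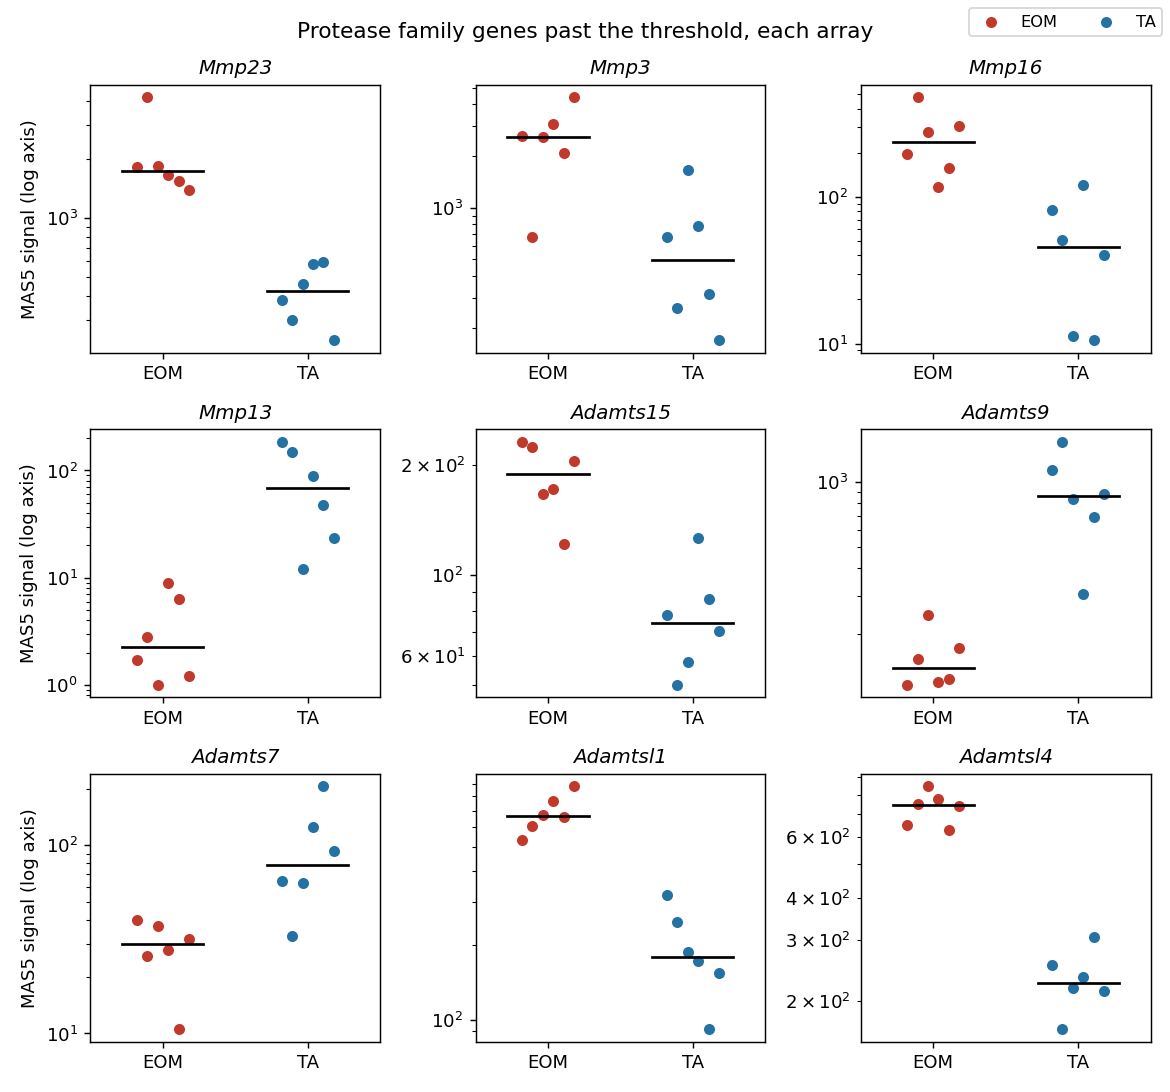
MAS5 signal on a log axis for each EOM and TA array (6 points per group, bars at the medians) of the 9 genes past the threshold. In Mmp23, Adamtsl1 and Adamtsl4 all EOM points lie above all TA points, in Mmp13 and Adamts9 all lie below, and the other 4 overlap.

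Mmp3 and Mmp13 belong to a run of 10 neighbouring MMP genes on mouse chromosome 9, in the order Mmp13, Mmp12, Mmp1b, Mmp3, Mmp1a, Mmp10, Mmp8, Mmp27, Mmp20 and Mmp7 (assembly GRCm38.p6, used for the order of genes). Mmp27 was not analysed here, and only Mmp13, Mmp3 and Mmp10 of the other 9 passed the filter. The 3 tested neighbours thus gave a gene lower in EOM, a gene higher in EOM and a gene that did not pass. The last, Mmp10, had a mean signal of 36.44, just above the filter's level of 33.87, so its result says little. Its medians were 23.55 in EOM and 21.95 in TA. The AP-1 element, a binding site of Fos and Jun proteins, is the textbook regulatory element of collagenase and stromelysin promoters. It was searched as TGAGTCA or TGACTCA, which are each other's reverse complement and so cover both strands, in the RefSeq promoters (250 bases before to 50 after each start, build GRCm38.p6). At least 1 listed promoter held it for 7 of the 9 cluster genes and for 0 of the 14 other members with a promoter in the table. Over all 32851 promoters 5.20% held it, a share of promoters rather than of genes. Mmp12 and Mmp7 had 2 listed promoters each, of which 1 held it. The 3 promoters below are those of the tested neighbours, with the element in capitals. They are shown for the position of the element, and its part in the results was not tested.
Mmp3 (chr9:7445572-7445871, plus strand): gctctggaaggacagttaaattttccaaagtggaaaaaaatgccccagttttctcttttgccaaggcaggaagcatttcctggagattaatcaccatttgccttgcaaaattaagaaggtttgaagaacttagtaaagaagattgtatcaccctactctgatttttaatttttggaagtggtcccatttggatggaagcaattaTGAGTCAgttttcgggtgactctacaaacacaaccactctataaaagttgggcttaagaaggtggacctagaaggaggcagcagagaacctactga
Mmp13 (chr9:7272264-7272563, plus strand): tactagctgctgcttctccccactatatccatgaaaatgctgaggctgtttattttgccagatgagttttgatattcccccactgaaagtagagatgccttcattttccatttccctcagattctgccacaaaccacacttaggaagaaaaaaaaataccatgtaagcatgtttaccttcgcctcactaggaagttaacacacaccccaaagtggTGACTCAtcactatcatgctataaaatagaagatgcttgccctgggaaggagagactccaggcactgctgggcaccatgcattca
Mmp10 (chr9:7502092-7502391, plus strand): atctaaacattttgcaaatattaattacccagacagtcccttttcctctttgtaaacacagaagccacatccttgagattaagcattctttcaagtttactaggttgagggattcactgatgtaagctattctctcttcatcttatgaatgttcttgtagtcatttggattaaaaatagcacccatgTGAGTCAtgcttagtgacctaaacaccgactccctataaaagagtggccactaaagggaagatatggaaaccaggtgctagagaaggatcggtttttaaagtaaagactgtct
The element begins 46 bases before the start in Mmp3, 35 in Mmp13 and 63 in Mmp10. A match describes the letters only and shows no binding. Of 12 genes listed for AP-1, NF-kappaB and related factors, 10 were tested and 0 passed in limma, while 1 was higher and 1 lower at an unadjusted p under 0.05 (median log2 fold change -0.04). Without EOM 1, Fosb, named after its values were seen, was higher (1.07, adjusted p = 0.00675).

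**Figure D3:**
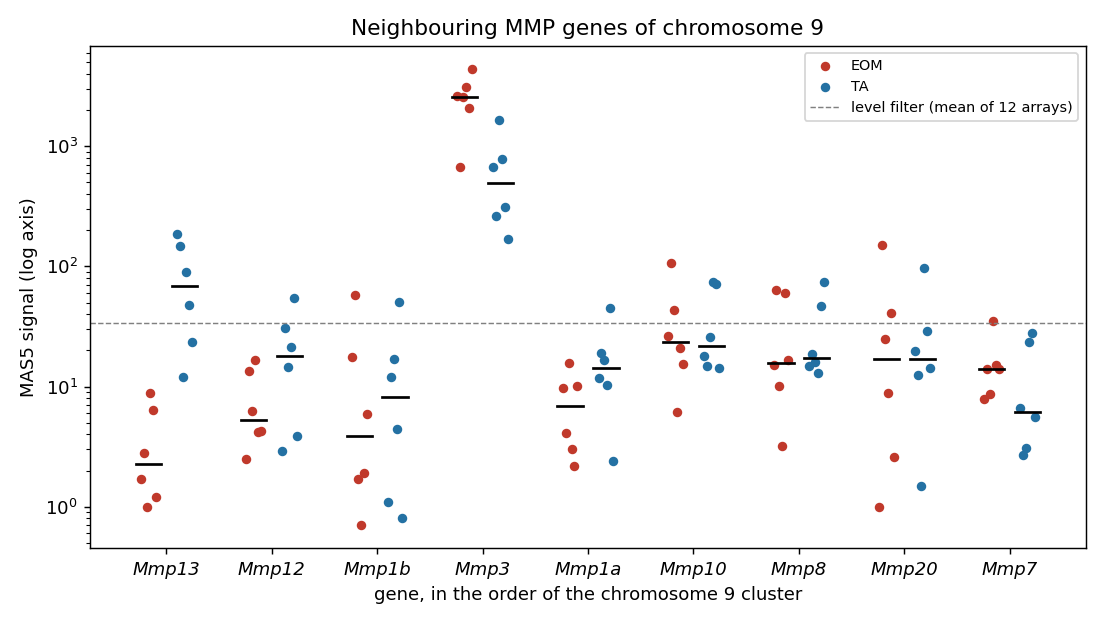
MAS5 signal on a log axis of the 9 measured genes of the chromosome 9 cluster in their order along it, with EOM points left of TA points, bars at the medians and a dashed line at the filter's level of 33.87. Mmp3 is higher in EOM and Mmp13 lower, and most values of the 6 untested genes lie under the line.

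Among the 7 ADAMTS genes known for cleaving versican, aggrecan and related proteoglycans, 6 were tested, and 1 rose and 1 fell. Over all tested genes 4.08% rose and 6.81% fell. Adamts9, a broadly expressed protease needed for versican turnover and vessel development in mice, had signals from 116.0 to 243.2 (median 138.4) in EOM, against 304.5 to 1540.2 (median 860.6) in TA. All EOM arrays lay below all TA arrays. On the log2 scale the difference was -2.32 ± 0.33 (SE, limma adjusted p = 0.000136, probe set 1437785_at). Its further probe sets gave -1.26 and -0.98 and did not pass, and the mean of all 3 gave -1.52 (adjusted p = 0.00117). Adamts15, also a versican-cleaving enzyme, had signals from 121.7 to 231.5 (median 188.6) in EOM and from 50.1 to 126.2 (median 74.1) in TA. EOM 5, at 121.7, and TA 3, at 126.2, were the only arrays that crossed. Its log2 fold change was 1.13 ± 0.26 (SE, limma adjusted p = 0.0101, probe set 1427056_at). Adamts8, its neighbour on chromosome 9, was at 0.53 ± 0.37 and did not pass.

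Adamts1, Adamts4 and Adamts5, the best known aggrecan-cleaving members, did not pass in the main fit with 12 arrays. With array weights, also on 12 arrays, Adamts1 (0.67, limma adjusted p = 0.00556) and Adamts5 (1.14, adjusted p = 0.00403) passed. Adamts4 did not pass there either (-0.88, limma adjusted p = 0.115). Adamts1 had signals from 6732.4 to 16780.2 (median 14994.4) in EOM and from 7244.8 to 11557.2 (median 8840.3) in TA. EOM 1 had the lowest value, and the other 5 EOM arrays, from 13438.0 upward, lay above every TA array. The log2 fold change was 0.57 ± 0.27 (SE, limma adjusted p = 0.249), and 0.77 without EOM 1 (adjusted p = 0.0113). Adamts5, next to Adamts1 in the genome, had signals from 139.1 to 1622.9 (median 1390.6) in EOM and from 210.3 to 994.0 (median 554.6) in TA. The lowest EOM value was again on EOM 1, and the other 5 lay above all TA arrays. It differed by a log2 fold change of 0.91 ± 0.51 (SE, limma adjusted p = 0.352), and 1.44 without EOM 1 (adjusted p = 0.00281). Further tested Adamts5 probe sets were at 1.02 ± 0.32 (limma adjusted p = 0.0554) and 0.72 ± 0.30 (adjusted p = 0.172). Adamts4 had signals between 212.3 and 705.5 (median 368.9) in EOM and between 158.4 and 2062.4 (median 577.0) in TA, and was at -0.53 ± 0.45 (adjusted p = 0.613). Its highest value was on TA 0 and its lowest on TA 6, and the difference was -0.15 without TA 0 and -0.86 without TA 6, neither past the threshold. A further Adamts4 probe set was at -0.90 ± 0.39 (95% interval -1.73 to -0.07) and did not pass either (limma adjusted p = 0.206). Adamts20 was not tested.

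The other ADAMTS genes had smaller or less certain differences. Adamts7, which with Adamts12 is known for cleaving the cartilage protein Comp, had signals from 10.5 to 40.3 (median 29.75) in EOM and from 32.9 to 206.0 (median 78.7) in TA. EOM 0, EOM 2 and TA 1 fell within the overlap. On the log2 scale the difference was -1.21 ± 0.36 (SE, limma adjusted p = 0.0478, probe set 1452339_at). This call was close to the threshold and was lost in 10 of the 12 fits with 1 array left out (highest adjusted p = 0.120), and its size was -0.73 with 64 as the added constant. Adamts12 had signals from 253.1 to 528.3 (median 333.8) in EOM and from 106.1 to 601.4 (median 556.5) in TA, at -0.27 ± 0.36 (adjusted p = 0.785). TA 3 alone was low in TA, and without TA 3 the value was -0.63, which did not pass either. Adamts6 and Adamts10, a related pair known for binding or regulating fibrillin microfibrils, were at 1.20 ± 0.38 (limma adjusted p = 0.0595) and 1.14 ± 0.35 (limma adjusted p = 0.0508). Without EOM 1 they passed, at 1.41 (adjusted p = 0.00494) and 1.11 (adjusted p = 0.0354). Without TA 6 they also passed, at 1.36 and 1.43. Adamts3, a procollagen N-proteinase that also activates the lymphatic growth factor Vegfc, was at 0.22 ± 0.32. Adamts16 was at 0.62 ± 0.42, and Adamts18 and Adamts19 were not tested.

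All 5 ADAMTS-like genes were tested, and 2 rose, against 4.08% of all tested genes. Adamtsl4, which binds fibrillin 1 and whose loss in humans displaces the lens, had signals from 630.3 to 847.2 (median 748.0) in EOM, against 164.8 to 306.2 (median 225.8) in TA. Every EOM array lay above every TA array, with little spread within either group. Its log2 fold change was 1.61 ± 0.22 (SE, limma adjusted p = 9.29e-05, probe set 1451932_a_at). Adamtsl1, also called punctin, had signals from 534.3 to 879.7 (median 664.7) in EOM, against 91.4 to 318.2 (median 179.8) in TA, again without overlap. The log2 fold change was 1.80 ± 0.27 (SE, limma adjusted p = 0.000260, probe set 1442063_at). Adamtsl2, a binder of latent TGF-beta complexes, was at 0.63 ± 0.25 (95% interval 0.11 to 1.15, adjusted p = 0.145). Adamtsl5 was at 0.77 ± 0.38 (adjusted p = 0.272) and Adamtsl3 at -0.27 ± 0.22 (adjusted p = 0.589). Without TA 3, Adamtsl2 (0.76, adjusted p = 0.0480) and Adamtsl5 (1.07, adjusted p = 0.0445) passed.

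Of the 48 tested probe sets of the members, 9 rose and 3 fell, against 3.25% and 5.02% of all 27019 tested probe sets (8.27% either way). In 6 of the 48 the groups were apart, against 5.46% of all. For 14 of the 38 genes more than 1 probe set was tested. Both tested probe sets of Mmp23 passed, at 2.21 and 1.54. Of the 3 tested for Mmp16, 2 passed, at 2.10 and 1.85, and the other was at 0.93. Of the 3 tested for Adamtsl1, 2 passed, at 1.80 and 1.26, and the other was at 0.96. In Mmp23, Adamtsl1 and Adamts9 the groups were apart on the probe set used and overlapped on every further tested one. In Mmp16 they overlapped on the probe set used and were apart on the one at 1.85. The estimates differed in sign in Adamts10 (1.14 and -0.33) and Adamts16 (0.62 and -0.41), and none of these 4 passed. Of the 9 genes past the threshold, Mmp3, Mmp13, Adamts7, Adamts15 and Adamtsl4 rested on 1 tested probe set each.

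**Figure D4:**
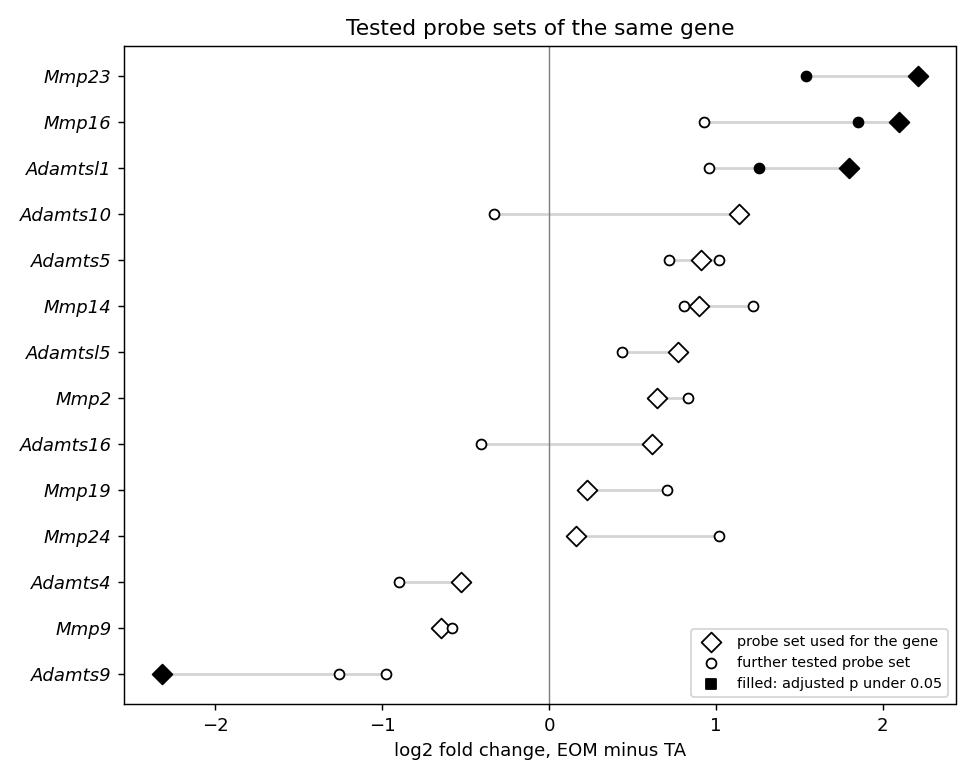
log2 fold change (EOM minus TA) of every tested probe set for the 14 genes with more than 1, with diamonds for the probe set used and filled symbols for adjusted p under 0.05. The probe sets of a gene lie on 1 side of 0 except in Adamts10 and Adamts16.

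Without EOM 1, 11 members rose and 3 fell, 48.3% of the 29 against 20.5% of all tested genes. The 5 added to those that rose were Mmp14, Adamts1, Adamts5, Adamts6 and Adamts10. By direction, 37.9% of the members rose against 10.0% of all genes, and 10.3% fell against 10.5%. Without EOM 1, TA 3 and TA 5, 12 rose and 2 fell, 48.3% against 21.9% of all genes. When the beta-actin ratio was added to the fit all 9 calls remained, and Mmp2 and Adamts10 were added. That made 8 members higher and 3 lower, while in the same fit 5.75% of all tested genes were higher and 9.12% lower (14.9% in all).

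**Figure D5:**
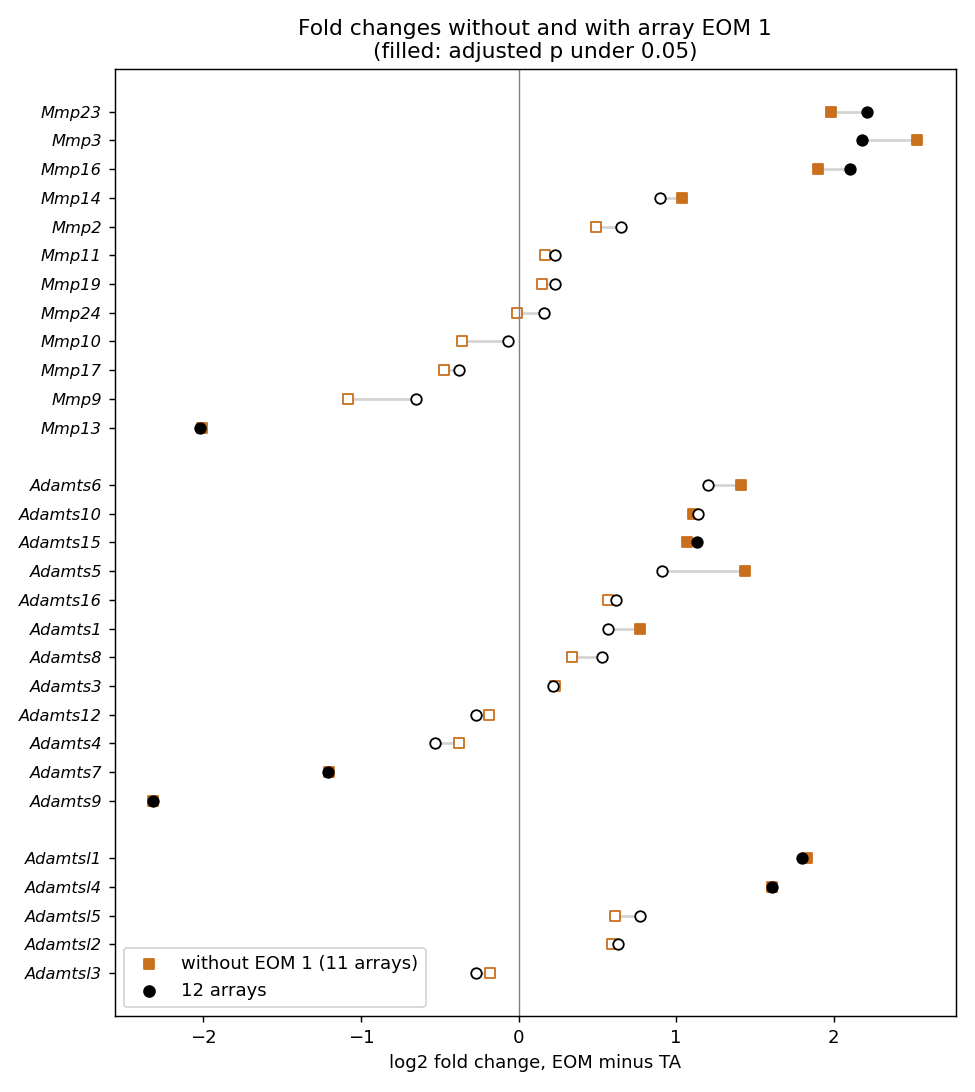
log2 fold change (EOM minus TA) of the 29 tested genes without EOM 1 (squares) and with 12 arrays (circles), filled where the adjusted p was under 0.05. Adamts5 moves most, to 1.44 without EOM 1 and 0.91 with it, while Adamts9, Adamtsl4 and Mmp13 hardly move.

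Of 10 genes listed as inhibitors of these proteases, 9 were tested, and 1 rose and 1 fell, against 4 higher and 1 lower without EOM 1. Timp4 averaged 79.77 ± 72.54 in EOM, against 5600.0 ± 2161.3 in TA (SD, n = 6 each), and fell (-6.10 ± 0.41, limma adjusted p = 1.11e-07), and Spock3, a testican known to inhibit membrane-type MMPs, rose at 1.45 ± 0.40 (adjusted p = 0.0301). Timp2, the inhibitor that also presents pro-Mmp2 to Mmp14, averaged 8349.8 ± 1606.9 in EOM, against 5012.9 ± 1624.4 in TA (SD, n = 6 each), and was at 0.78 ± 0.26 (limma adjusted p = 0.0821). Without EOM 1 it passed, at 0.85 (adjusted p = 0.0174). Reck, a membrane-anchored inhibitor of several MMPs, was at 1.40 ± 0.49 (limma adjusted p = 0.0993), and at 1.98 without EOM 1 (adjusted p = 3.15e-06). Tfpi2, named after its values were seen, was at 0.67 (adjusted p = 0.574), and at 1.28 without EOM 1 (adjusted p = 0.00121). Timp1 was at 0.15 ± 0.25 and Timp3, the TIMP best known for inhibiting ADAMTS enzymes, at -0.33 ± 0.41.

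The furin-like convertases, which remove the propeptides of membrane-type MMPs and ADAMTS proteases, gave 2 higher and 0 lower of 4. Pcsk6 averaged 2123.8 ± 777.6 in EOM, against 353.8 ± 138.6 in TA (SD, n = 6 each), a log2 fold change of 2.49 ± 0.36 (limma adjusted p = 0.000151). Pcsk5 rose too (1.60 ± 0.26, adjusted p = 0.000498), and neither gene's groups overlapped. Pcsk7 was at -0.78 ± 0.24 (adjusted p = 0.0515, and 0.0175 without EOM 1) and Furin at -0.25 ± 0.38. In the plasminogen system, Plat, the tissue plasminogen activator, rose to 7819.4 ± 3331.4 in EOM, against 1296.2 ± 523.7 in TA (SD, n = 6 each, 2.44 ± 0.43, limma adjusted p = 0.00104). The other 3 tested genes of that list did not pass, and Plau was at -0.85 ± 0.38. Among 10 cell surface partners 2 rose, Lrp1, a receptor that clears several MMPs and ADAMTS enzymes (1.54 ± 0.35, limma adjusted p = 0.00739), and Itgb3 (1.09 ± 0.33, adjusted p = 0.0487), and Cav1 fell (-3.72 ± 0.30, adjusted p = 3.82e-07). Without EOM 1 this list gave 4 higher and 2 lower, in a fit where 10.0% of all tested genes were higher and 10.5% lower. The added genes, named after their values were seen, were Cd44 (0.91, limma adjusted p = 0.0153), Cd9 (1.92, adjusted p = 0.00882) and Tspan14 (-0.87, adjusted p = 0.0429).

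Of the substrates, the partners of ADAMTS-like proteins in fibrillin microfibrils and elastic fibres gave 6 higher and 0 lower of 9 tested (7 higher and 0 lower at an unadjusted p under 0.05, median 1.25). Ltbp1 (2.05 ± 0.26, limma adjusted p = 3.72e-05), Ltbp2 (1.58 ± 0.35, adjusted p = 0.00691) and Mfap5 (1.45 ± 0.44, adjusted p = 0.0477) had the largest changes. The list of proteoglycan and related substrates gave 0 higher and 2 lower of 7, the Adamts7 substrate Comp (-3.71 ± 0.35, limma adjusted p = 1.79e-06) and von Willebrand factor, Vwf (-4.00 ± 0.27, adjusted p = 1.11e-07), which is an endothelial gene. Versican, Vcan, was at 1.20 ± 0.38 (limma adjusted p = 0.0625, and 0.00707 without EOM 1) and aggrecan, Acan, at -0.63 ± 0.37. Of the 5 fibrillar procollagen genes tested 0 passed in limma, and 1 was higher at an unadjusted p under 0.05. The ADAM proteases, the membrane-bound relatives of the ADAMTS family, gave 0 higher and 1 lower of 10, Adam10 (-1.14 ± 0.31, limma adjusted p = 0.0275). That is near the 10.9% of all tested genes that passed. Without EOM 1, 4 more genes of these substrate and ADAM lists passed, all but Vcan named after their values were seen. Over all tested genes the share past the threshold went from 10.9% to 20.5%. Vcan, Ltbp4 (1.52, limma adjusted p = 0.00429) and Col5a1 (0.74, adjusted p = 0.0298) were higher, and Adam8 (-1.63, adjusted p = 0.00430) was lower.

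Markers of several cell types moved between the same groups. The counts below stand against 4.08% higher and 6.81% lower over all tested genes, and 10.0% and 10.5% without EOM 1. Of 14 endothelial markers 12 fell and 0 rose, and their summed signal was 2233.7 to 3808.9 in EOM and 13563.4 to 32005.8 in TA. Markers of pericytes and smooth muscle gave 8 lower and 0 higher of 10 tested, with sums of 3364.9 to 5956.9 in EOM and 15430.5 to 31736.7 in TA. Of 8 tested tendon and cartilage markers 5 fell and 0 rose, with sums of 1759.9 to 10194.0 in EOM and 27887.8 to 98474.8 in TA, while Col2a1 of cartilage was under the filter. Fmod alone averaged 4581.0 in EOM and 42452.4 in TA, and so made up much of these sums. Sox9 went the other way, at 1.60 ± 0.49 (limma adjusted p = 0.0520), and without EOM 1 this list gave 1 higher, Sox9, and 6 lower. Thus the falls of Adamts9, Mmp13 and Adamts7 stood beside falls in most tested genes of these 3 lists. Of 11 fibroblast markers 6 rose and 0 fell, with sums of 127982.8 to 221324.7 in EOM and 70903.3 to 126003.4 in TA, beside the genes that rose. Dcn (0.16), Col1a2 (-0.09), Col3a1 (0.0), Col1a1 (-0.84) and Lum (1.54), named after their values were seen, did not pass. Pi16 averaged 19584.2 in EOM and 466.0 in TA, Dpep1 20700.2 and 4677.8, and Dpt 21020.0 and 5907.9. These 3 genes, also named after their values were seen, made up much of the difference in the sums. Of 9 tested macrophage and monocyte markers 4 fell and 0 rose, with sums of 290.2 to 1211.1 in EOM and 919.4 to 6158.6 in TA. The 7 tested neutrophil markers gave 1 higher and 2 lower, with sums of 238.5 to 7024.2 in EOM and 368.9 to 3159.7 in TA. Of 9 myogenic markers 5 were tested, 1 fell and 0 rose, and Pax7 and Myf5, which define muscle stem cells, were under the filter. Without EOM 1 the counts were 7 higher for fibroblast markers, 5 lower for macrophage and 2 lower for myogenic markers, and the same as above for the endothelial, pericyte and neutrophil lists. The part of these cell types in the differences of the proteases was not tested.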

How the data were processed

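Total RNA of 12 side population preparations was amplified in 2 rounds and hybridized to Affymetrix mouse arrays, per the labels' protocols. The deposited values are signal intensities of MAS5, per the submitters' processing notes, on a linear scale. The authors had scaled each array as a whole, as a 2% trimmed mean of 150.0 on every array shows. Detection calls were not used here, and the array's genome build is not given in the sources used here. Genes were named through the platform's annotation (34945 probe sets with 1 symbol, 932 with several and 9160 with none), and a gene was represented by its tested probe set with the highest mean. After removal of 64 controls and of the dimmest 40% of probe sets by mean signal, log2(signal + 16) of 27019 probe sets was fitted with limma 3.58.1 in R 4.3.3 (intensity trend, two-sided). Adjusted p-values (Benjamini-Hochberg, over all of these) were called under 0.05. SE are moderated. The precision is limited by the 6 arrays per group. No columns held identical values, and 0 were unused. The fit was tested on simulated data, with independent normal noise of the same spread on every array. Such data cannot show how it behaves with arrays like EOM 1 and TA 3. The members and lists were chosen with earlier results of these data known. Every member is named. Signals per group are given for those past the threshold and for the 6 others with the highest mean signal. They are also given for Mmp9, Mmp8, Mmp12 and Adamts18, which were chosen outside this rule. From each list up to 3 genes are given, with the largest change among those past the threshold. Timp1, Timp2, Timp3, Timp4, Reck, Furin, Vcan, Acan and Plau are given in any case. A protein motif search planned for the members was not run. The main fit did not treat arrays with the same number in their titles as pairs, and whether these preparations were paired was not tested. Alternatives are given in the closing section.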

Additional observations from a re-analysis of the deposited data

Results flagged for a closer look

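In 30 groups of 6 arrays (15 member genes in EOM and TA), the lowest or highest array was set against the gap to its nearest neighbour by Dixon's test on the log2 scale, which by chance marks about 1 group in 20. It marked 5. On EOM 1 the signal was 4170.2 for Mmp23 and 36763.8 for Mmp2, both above the other EOM arrays. On the same array it was 6732.4 for Adamts1 and 139.1 for Adamts5, both below the other EOM arrays. On TA 3 the signal was 106.1 for Adamts12, below the other TA arrays. EOM 1 and TA 3 also had the highest median signals and 3' to 5' beta-actin ratios of their groups, and the part of these in the 5 values was not tested.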

How the results depend on the processing

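Of the 9 member genes past the threshold, Mmp23, Mmp3, Mmp16, Adamts15, Adamts9, Adamtsl1 and Adamtsl4 kept their direction and stayed past it in all 12 fits with 1 array left out and in the 12 other settings. Mmp13 was lost without TA 0 and without TA 1 and in none of the 11 other settings run for it. Adamts7 was lost in 10 of 12 fits with 1 array left out and in 8 of 11 other settings, the replicate block among them (adjusted p = 0.120). No called value changed sign. Among all probe sets, 2234 passed (877 higher, 1357 lower). Median centring gave 1468 (568 higher, 900 lower), array weights 5537 (2639 higher, 2898 lower) and the fit without EOM 1, TA 3 and TA 5 gave 4687 (2259 higher, 2428 lower). With 1 array left out the counts were 1579 to 4374 (573 to 2135 higher, 1006 to 2239 lower), the most without EOM 1 (4374, with 2135 higher and 2239 lower) and the fewest without EOM 2 (573 higher). Of the members, 14 were higher with array weights and 12 without those 3 arrays. With 60% of probe sets left out 1 was lower, as Mmp13 and Adamts7 were not tested there. With 1 array left out 6 to 11 were higher, the 11 without EOM 1, and 1 to 3 lower, the 1 without TA 0. By the replicate number in the titles, same-numbered arrays had correlations of deviations from -0.325 to 0.162. Of the 6 EOM arrays, 1 was most like the TA array of its number. EOM 1 was most like TA 3, and these arrays had the highest median signals of their groups. Whether same-numbered preparations were paired was not tested. With the replicate block 1656 probe sets passed, and 6 members were higher and 2 lower. Quantile normalization and median centring gave a median of all tested genes of 0.01 and 0.06, against -0.04 as reported. Signals near the array's background limit what can be said of Mmp13 and Adamts7 in EOM, of Adamts6 in TA, of Mmp10 in both groups and of the 9 untested genes. Low values also occurred for Mmp9 in EOM (median 17.55) and Mmp16 in TA (from 10.5). The size of the Mmp16 difference was 2.60 with 1 as the added constant and 1.44 with 64, both past the threshold.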

Other observations

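On EOM 1 different probe sets of the same gene disagreed. For Mmp23 this array was the highest of the EOM arrays on one probe set (4170.2) and the lowest on the other (172.1). For Mmp2 it was likewise the highest on one (36763.8) and the lowest on the other (5817.3), and for Adamts5 the lowest on one (139.1) and the highest on another (677.6). Of the 14 member genes with more than 1 tested probe set, 4 (with Mmp16) showed this on EOM 1, and at most 1 on each other EOM array. Over all 5640 genes with more than 1 tested probe set, 39.3% did so on EOM 1 and 21.3% on TA 3, against 2.89% to 11.1% on the other arrays.

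Among members under the filter on low signal, Mmp8 had signals from 3.2 to 63.3 in EOM and from 13.0 to 74.6 in TA, and Mmp12, the macrophage elastase, from 2.5 to 16.7 in EOM and from 2.9 to 54.2 in TA. Adamts18 had signals from 1.3 to 68.3 in EOM and from 7.7 to 109.2 in TA, with all its 3 probe sets under the filter. The 9 untested genes had mean signals over the 12 arrays from 12.53 to 33.63.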
